A study of Mus musculus with 8 samples.

Results

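The Hox genes of the mouse were described in the liver and in eWAT, the white fat pad that lies along the epididymis. A gene was counted as a Hox gene when its symbol was Hox, a cluster letter from a to d and a paralog number. Of the 19348 genes in the deposited table, 38 met this rule, with 11 in the HoxA cluster, 10 in HoxB, 8 in HoxC and 9 in HoxD. Their levels did not enter the choice. RNA-seq had been carried out on 8 libraries from male C57BL/6 mice aged 12 weeks, which were kept on a normal diet and killed after a fast of 16 h. Each tissue had 2 libraries labelled Crtc1+/+ (wild type) and 2 labelled Crtc1-/-. The deletion was made in the whole body by CRISPR/Cas9 with a pair of guides aimed at exons 2 and 4 of Crtc1, which encodes a coactivator of the transcription factor CREB, and homozygotes came from crosses of heterozygous carriers.

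Hox genes encode homeodomain transcription factors that give cells their address along the body axis. In each cluster the genes stand in order of paralog number, and genes with low numbers are switched on earlier and reach further towards the head than genes with high numbers. The pattern is kept in adult connective tissue and epithelium, so fat depots differ in their Hox genes, and the high-numbered genes of HoxA and HoxD are known for patterning the male and female reproductive tracts. HOX proteins bind DNA together with PBX and MEIS cofactors of the TALE class, Polycomb and trithorax proteins hold the clusters silent or active, and retinoic acid switches on low-numbered genes in the embryo.

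In GRCm38, with GENCODE coordinates, HoxA lies on the minus strand at chr6:52155590-52260880. HoxB (chr11:96194316-96368256), HoxC (chr15:102921103-103036852) and HoxD (chr2:74668310-74765142) lie on the plus strand. The clusters are short: HoxD spans 96.8 kb and HoxB, the longest, 173.9 kb. Genes within them overlap. Hoxd3 and Hoxd4 share 388 annotated exonic bases and Hoxc5 and Hoxc10 share 166. Gm28230, a protein-coding gene on the same strand, shares 2225 bases with Hoxd3 (53.1% of it) and 1154 with Hoxd4 (39.1%). Further, 10 of the 38 members share exonic bases with a gene on the opposite strand, among them Hoxb3, of which 52.9% lies under Hoxb3os. How reads were divided there, and whether strand was used, is not given in the sources used here, so values of these members are less certain than the rest.

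Because CRTC1 acts through CREB, the promoters of Hox genes were searched for the CREB binding site. RefSeq promoters of GRCm38.p6 (250 bases before to 50 after the start) were matched for 22 of the 38 members. The full cyclic AMP response element, TGACGTCA, was in none of the 22, against 2.03% of all 27025 genes with a promoter. The shorter core of that element, TGACG, on either strand and outside a full element, was in 7 of the 22 (Hoxa5, Hoxa6, Hoxa11, Hoxb1, Hoxd3, Hoxd8 and Hoxd11), against 21.7% of all genes. The PBX-HOX site TGATTNAT was in 2 of the 22 (Hoxa2 and Hoxd11), against 3.74%. The 250 bases upstream of 4 members are shown 5′ to 3′ in the direction of transcription, because Hoxb8, Hoxd8 and Hoxd4 were among the genes lower in eWAT labelled Crtc1-/- and Hoxa5 was not. Capitals mark the core TGACG or its reverse complement, and none of the windows holds annotated exonic bases.
Hoxb8, chr11:96281655-96281904, plus strand: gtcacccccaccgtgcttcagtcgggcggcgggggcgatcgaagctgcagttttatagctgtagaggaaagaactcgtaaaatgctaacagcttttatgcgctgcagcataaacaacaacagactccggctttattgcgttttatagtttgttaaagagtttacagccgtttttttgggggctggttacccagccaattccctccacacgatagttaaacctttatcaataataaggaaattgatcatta
Hoxd8, chr2:74704365-74704614, plus strand: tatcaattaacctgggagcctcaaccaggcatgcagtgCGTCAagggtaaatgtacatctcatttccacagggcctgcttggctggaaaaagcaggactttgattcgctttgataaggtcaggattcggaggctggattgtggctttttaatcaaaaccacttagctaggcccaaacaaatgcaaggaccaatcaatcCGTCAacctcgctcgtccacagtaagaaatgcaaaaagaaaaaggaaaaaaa
Hoxd4, chr2:74721728-74721977, plus strand: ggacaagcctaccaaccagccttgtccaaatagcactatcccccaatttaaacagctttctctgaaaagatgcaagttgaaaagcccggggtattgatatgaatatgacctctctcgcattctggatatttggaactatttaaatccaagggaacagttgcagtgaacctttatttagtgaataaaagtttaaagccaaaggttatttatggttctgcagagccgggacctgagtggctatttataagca
Hoxa5, chr6:52204588-52204837, minus strand: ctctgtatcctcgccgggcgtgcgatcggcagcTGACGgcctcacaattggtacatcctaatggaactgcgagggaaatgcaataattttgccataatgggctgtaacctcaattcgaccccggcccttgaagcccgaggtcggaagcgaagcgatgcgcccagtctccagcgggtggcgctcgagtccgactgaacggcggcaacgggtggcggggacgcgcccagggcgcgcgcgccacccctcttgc
The cores in Hoxd8 began 212 and 52 bases before the start and read CGTCA, the other strand of TGACG. Hoxa5 had 1 core, 217 bases before its start, and the windows of Hoxb8 and Hoxd4 had none. These matches describe letters and not binding.

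Several properties of the libraries bear on every comparison. Totals ran from 16560070 to 19721464 counts. Crtc1 was not lower in the libraries labelled Crtc1-/-, with 58.5 and 33.6 CPM (counts scaled for library size with the TMM factors of the tissue) against 32.6 and 33.7 in eWAT, and 22.1 and 17.98 against 11.7 and 9.86 in liver. A count over the whole gene does not resolve the targeted exons, so the genotype is given here as labelled. In the eWAT libraries labelled Crtc1+/+, 25 epididymis marker genes made up 9.33% and 10.8% of all counts, and in those labelled Crtc1-/- 0.00297% and 0.0015%, with 8 and 6 of the 25 at 0. Adipocyte markers made up 0.261% and 0.400% in the former and 4.67% and 2.22% in the latter. Replicate 2 of eWAT labelled Crtc1-/- also carried 10.3% hepatocyte marker counts, against 0.128% to 0.653% in the other eWAT libraries. In bulk tissue, fewer cells of a type and less RNA per cell cannot be told apart, and the part of these marker differences in the Hox values was not tested.

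Hox RNA was abundant in eWAT and scarce in liver. In eWAT the 38 genes took 22484 and 24294 counts in the libraries labelled Crtc1+/+ (0.123% and 0.138% of all counts), and 7736 and 4682 in those labelled Crtc1-/- (0.0418% and 0.0266%). In liver they took 68 and 46 counts under Crtc1+/+ and 105 and 125 under Crtc1-/-. A gene was taken as detected in a group when both libraries held over 3 counts. By this measure 31 members were detected under Crtc1+/+ and 25 under Crtc1-/- in eWAT, and 5 and 7 in liver. Those of liver all had paralog numbers from 2 to 5 (Hoxa4, Hoxa5, Hoxb2, Hoxb4 and Hoxb5 in both genotypes, with Hoxa2 and Hoxb3 added under Crtc1-/-). Hoxc11 and Hoxc13 had no count in any library, which allows up to 3 counts in each.

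**Figure D1:**
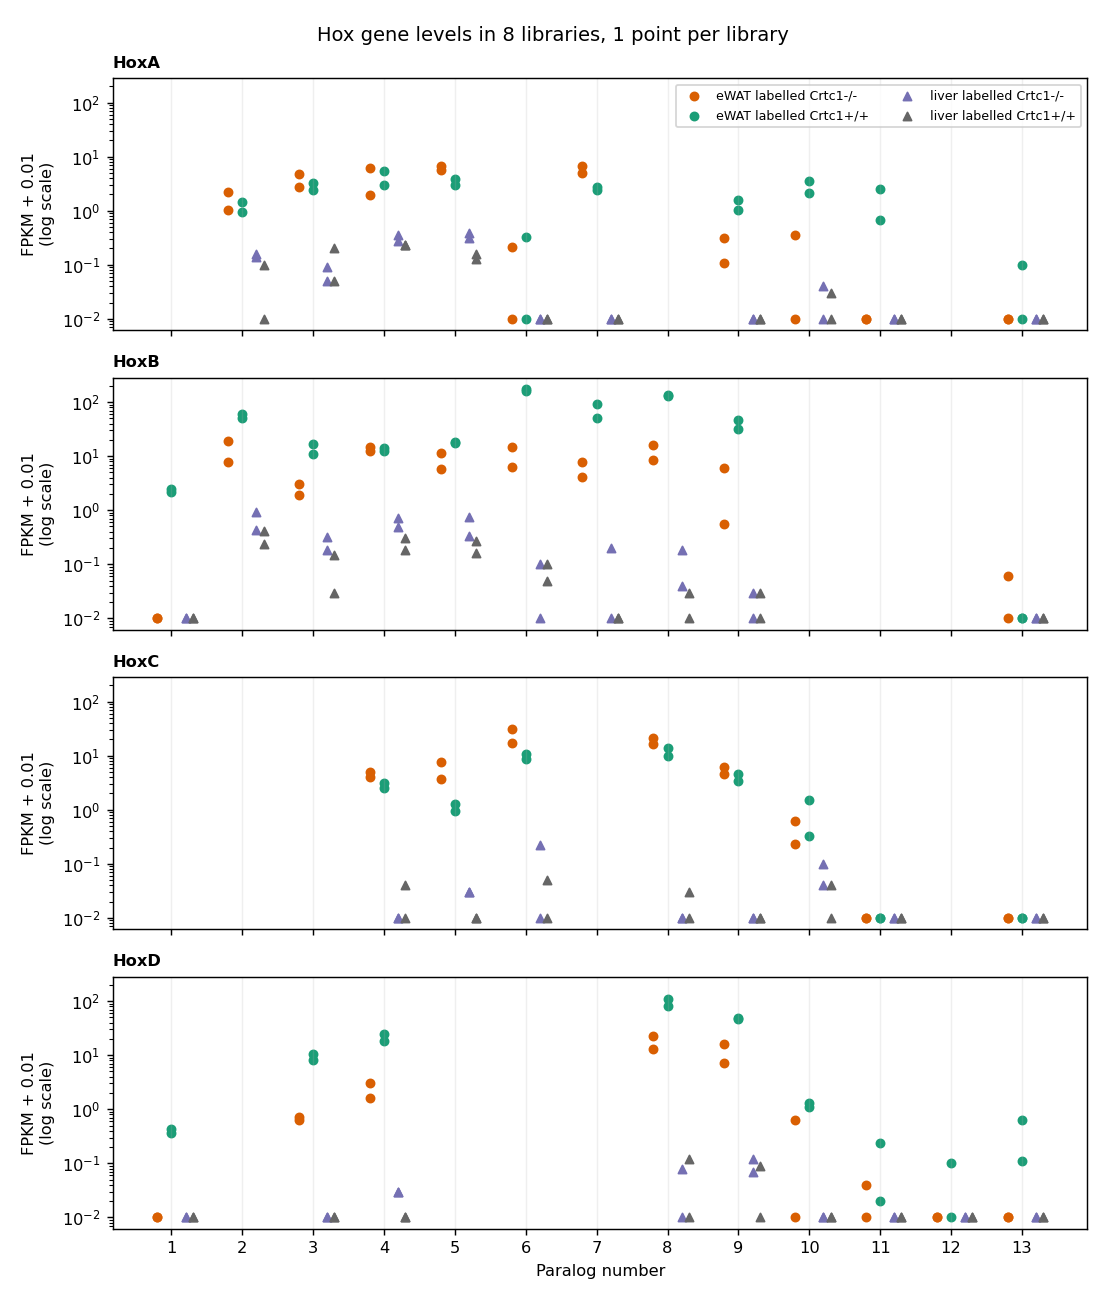
Level of 37 Hox genes in each of the 8 libraries, as FPKM + 0.01 on a log axis, against paralog number, with 1 panel per cluster. Circles are eWAT and triangles liver, and points at the bottom are libraries at 0. Hoxb6 reached 172 FPKM in eWAT, whereas no liver library reached 1 FPKM for any member, and most HoxC genes of eWAT ran higher in the libraries labelled Crtc1-/- while most HoxB and HoxD genes ran lower.

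Levels of different genes were compared in FPKM, the authors' value per transcript length. Over the 4 eWAT libraries the highest means were 88.5 FPKM for Hoxb6, 71.9 for Hoxb8, 57.1 for Hoxd8, 38.5 for Hoxb7 and 34.5 for Hoxb2. This order belonged to the libraries labelled Crtc1+/+, where Hoxb6 stood at 166 ± 8.12 FPKM (SD, n = 2), Hoxb8 at 132 ± 4.95, Hoxd8 at 96.3 ± 20.8, Hoxb7 at 71.0 ± 27.6 and Hoxb2 at 55.3 ± 5.99. Hoxd8 and Hoxb7 overlapped, as did Hoxb7 and Hoxb2, so these neighbours in the order did not differ beyond their spread. In the libraries labelled Crtc1-/- the first place went to Hoxc6 at 24.2 ± 10.2 FPKM and the next to Hoxc8 at 18.9 ± 3.59 and Hoxd8 at 17.8 ± 6.88, which overlapped. Hoxc6 and Hoxc8 pattern the trunk, and Hoxc8 is a known gene of white fat that holds back the brown fat programme. Liver levels were far lower, with means over its 4 libraries of 0.490 FPKM for Hoxb2, 0.415 for Hoxb4, 0.373 for Hoxb5, 0.265 for Hoxa4 and 0.238 for Hoxa5.

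The first comparison asked which Hox genes differed between genotypes in eWAT. Most HoxB and HoxD genes had lower values in the libraries labelled Crtc1-/-, and most HoxC and low-numbered HoxA genes had higher values, of which only Hoxc5 passed the test. Of the 38 members, 30 had enough counts to be tested, and 9 passed an adjusted p of 0.05 in edgeR's quasi-likelihood test (12.2% of all 15391 genes tested passed). Of these, 8 fell (5.54% of all genes did) and 1 rose (6.65% did). The 8 were Hoxb1, Hoxb3, Hoxb6, Hoxb7, Hoxb8, Hoxd3, Hoxd4 and Hoxd8, and the 1 was Hoxc5. The study itself required a change of more than 1 on the log2 scale in either direction and an unadjusted p under 0.01. By that rule 12 members passed (15.9% of all genes did), 11 of them lower (7.54% of all genes) and 1 higher (8.37%), the additions being Hoxa11, Hoxd1 and Hoxd9. Hoxb1, Hoxa11 and Hoxd1 had no count under Crtc1-/- and had enough counts to be tested only through the libraries labelled Crtc1+/+. These members could therefore be found only lower. With either library labelled Crtc1+/+ left out no gene of the whole table passed, Hox genes included, while the log2 fold changes stayed near their size, at -3.62 and -3.59 for Hoxb6 and -3.18 and -3.16 for Hoxb8. By the same test 12 Hox genes passed without replicate 1 (all lower) and 9 without replicate 2 of the libraries labelled Crtc1-/-. DESeq2 called 17 (14 lower, 3 higher), but the share of all genes it called is not given here, so this count is not read against it.

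Among the HoxB genes, Hoxb6 and Hoxb8 were the most abundant by mean FPKM over the 4 eWAT libraries and fell with the lowest adjusted p. In the libraries labelled Crtc1-/- alone, Hoxb2 (13.6 FPKM) and Hoxb4 (13.5) had higher means than Hoxb8 (12.25) and Hoxb6 (10.6), within their spread. Hoxb6, a gene of trunk mesoderm, had 192 and 189.9 CPM where the label was Crtc1+/+, against 20.4 and 10.8 CPM where it was Crtc1-/-, and a log2 fold change of -3.61 ± 0.42 (SE, edgeR adjusted p = 0.0184). Hoxb8, which also acts in blood progenitors, had 271 and 268 CPM against 36.5 and 23.1 CPM, a log2 fold change of -3.18 ± 0.37 (edgeR adjusted p = 0.0183). In both genes the groups were far apart and the pair labelled Crtc1+/+ was nearly equal. Their neighbour Hoxb7 had 51.0 and 92.3 CPM against 8.85 and 5.62 CPM and a log2 fold change of -3.30 ± 0.47 (edgeR adjusted p = 0.0239). Hoxb9, next to Hoxb8, had 73.2 and 109 CPM against 15.8 and 1.74 CPM. Its 2 libraries labelled Crtc1-/- differed widely from each other, and its log2 fold change of -3.38 ± 1.05 did not pass (edgeR adjusted p = 0.0996).

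The low-numbered end of HoxB was mixed. Hoxb1, the gene that sets the identity of a hindbrain segment, had 3.71 and 4.36 CPM (77 and 84 counts) under Crtc1+/+ and no count under Crtc1-/-. With a floor of 3 counts per library this is at least 21.6-fold lower (edgeR adjusted p = 0.0276). Having entered the test only through the libraries labelled Crtc1+/+, it could be found only lower. Hoxb3, of the anterior nervous system and neck, had 29.2 and 47.8 CPM against 9.67 and 7.15 CPM and a log2 fold change of -2.19 ± 0.42 (edgeR adjusted p = 0.0386), a call lost in 5 of 14 alternative analyses, among them the one without replicate 2 of eWAT labelled Crtc1-/- (adjusted p = 0.0807) and limma with a pseudocount of 0.1 (adjusted p = 0.0506). Between them Hoxb2 had 63.0 and 57.0 CPM against 24.1 and 11.5 CPM, a log2 fold change of -1.75 ± 0.44 that did not pass (edgeR adjusted p = 0.0657). Hoxb4, a gene of blood stem cells, was the one tested HoxB gene with a positive value, with 26.6 and 31.1 CPM against 30.7 and 43.3 CPM. Those groups overlapped and the log2 fold change of 0.36 ± 0.33 did not pass. Hoxb5 had a log2 fold change of -0.80 ± 0.38 that did not pass either. At the far end Hoxb13, a gene of the prostate and tail, had 1 count in 1 library.

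All 6 tested HoxD genes were lower without overlap in the libraries labelled Crtc1-/-, as were 35.4% of all genes, and 3 of the 6 passed. Hoxd8, the most abundant, had 118 and 170.3 CPM against 38.8 and 26.1 CPM, a log2 fold change of -2.15 ± 0.37 (edgeR adjusted p = 0.0305). Hoxd4 had 39.4 and 54.1 CPM against 7.59 and 4.79 CPM, a log2 fold change of -2.92 ± 0.42 (edgeR adjusted p = 0.0240). Hoxd3 had 19.7 and 26.6 CPM against 1.98 and 2.08 CPM, a log2 fold change of -3.51 ± 0.42 (edgeR adjusted p = 0.0193). Hoxd3 and Hoxd4 act in the vertebrae of the neck, and since they share exonic bases their changes are not independent measurements. Hoxd9 stood just outside the adjusted threshold, with 81.3 and 85.6 CPM against 31.5 and 16.9 CPM (log2 fold change -1.78 ± 0.39, edgeR adjusted p = 0.0505), and passed under 10 of 14 alternative analyses. At the low-numbered end, Hoxd1 had 11 and 13 counts in the libraries labelled Crtc1+/+ and none in the others, at least 3.23-fold lower (edgeR adjusted p = 0.0588). At the other end Hoxd13, of the digits and genital tubercle, had 26 and 4 counts against none and was too low to test.

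HoxC values lay the other way. Hoxc5 rose, from 2.94 and 2.23 CPM under Crtc1+/+ to 19.95 and 11.7 CPM under Crtc1-/-, a log2 fold change of 2.61 ± 0.51 (edgeR adjusted p = 0.0396). Its groups were well apart, but the call was lost when libraries were scaled by the upper quartile (adjusted p = 0.0503) or by library size (adjusted p = 0.0614), settings that moved the median of all genes from -0.05 to -0.25 and -0.35 on the log2 scale, and without replicate 1 of eWAT labelled Crtc1-/- (adjusted p = 0.0708). Hoxc6 had 12.2 and 15.8 CPM against 47.5 and 31.4 CPM, a log2 fold change of 1.49 ± 0.38 (edgeR adjusted p = 0.0657). Hoxc8 had 19.0 and 28.1 CPM against 36.9 and 58.6 CPM, a log2 fold change of 1.02 ± 0.39 (edgeR adjusted p = 0.148). Neither passed, although the groups of both stood apart. Hoxc4, the low-numbered end of the cluster, had 4.14 and 5.60 CPM against 9.73 and 9.79 CPM, and Hoxc9 6.26 and 4.88 CPM against 9.67 and 9.03 CPM, and both missed the threshold. Hoxc10, the highest-numbered HoxC gene with counts and a known marker of subcutaneous fat, had 49 and 10 counts against 20 and 7, and its groups overlapped.

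HoxA was split by paralog number. The 5 tested genes from Hoxa2 to Hoxa7 had log2 fold changes from 0.22 for Hoxa4 to 1.52 for Hoxa7, and the 3 from Hoxa9 to Hoxa11 were negative. None passed the adjusted threshold. Hoxa5, a gene of lung and fat, had 4.48 and 6.17 CPM against 11.9 and 12.3 CPM, a log2 fold change of 1.18 ± 0.43 (edgeR adjusted p = 0.134). Hoxa7 had 3.76 and 4.41 CPM against 12.5 and 10.97 CPM, a log2 fold change of 1.52 ± 0.43 (edgeR adjusted p = 0.0833). Both pairs labelled Crtc1-/- lay above both others. Hoxa10, which patterns the uterus and the epididymis, had 6.50 and 3.84 CPM against 0.715 CPM and no count. Hoxa11, of the uterus and vas deferens, had 99 and 25 counts against none, at least 16.3-fold lower (edgeR adjusted p = 0.0513). Hoxa13, the far end of the cluster, had 2 counts in 1 library labelled Crtc1+/+.

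**Figure D2:**
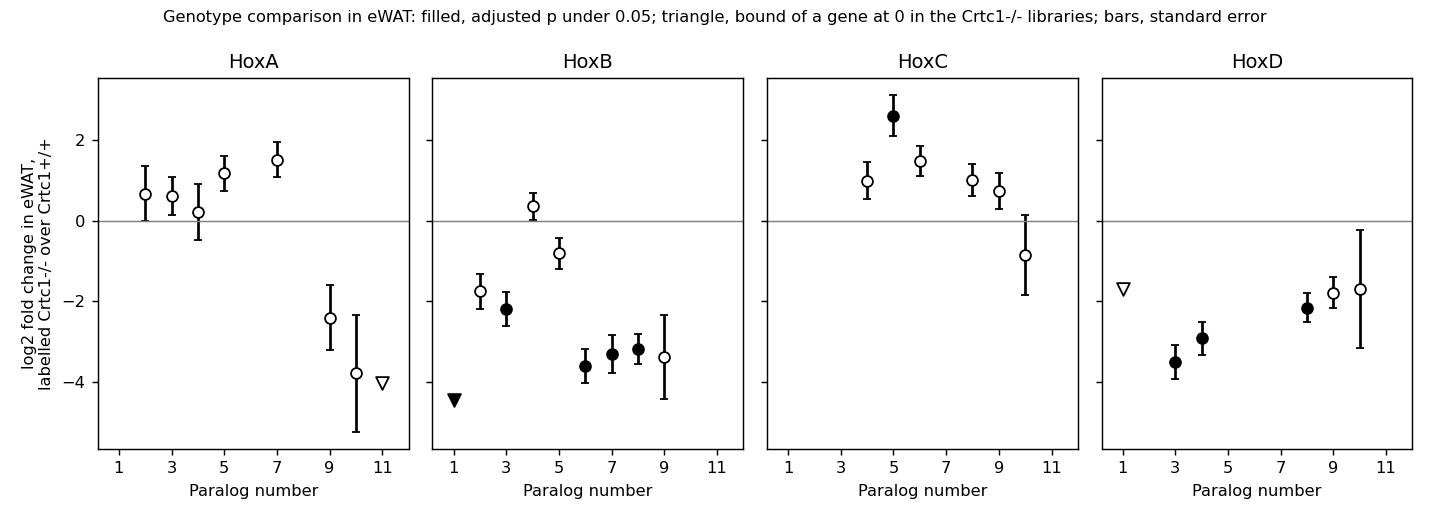
Log2 fold change in eWAT, libraries labelled Crtc1-/- over Crtc1+/+, of 29 tested Hox genes against paralog number in the 4 clusters, from edgeR. Bars are standard errors, filled symbols passed an adjusted p of 0.05 and triangles are bounds for genes at 0 in both libraries labelled Crtc1-/-. HoxB and HoxD lie mostly below 0, HoxC mostly above 0, and HoxA crosses from above to below 0 between Hoxa7 and Hoxa9.

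Described by cluster, the median log2 fold change was 0.62 in HoxA (6 of 9 tested genes above 0), -3.18 in HoxB (1 of 9), 1.01 in HoxC (5 of 6) and -2.53 in HoxD (0 of 6), or -1.97 in HoxD with Hoxd1 at its bound. Over all genes tested the median was -0.05. Upper-quartile and library-size scaling kept the sign of each cluster's median, but under library-size scaling Hoxa4 turned to -0.039, which left 5 of 9 HoxA genes above 0. By paralog number, the median was 0.22 over the 15 tested genes numbered 1 to 5, -2.15 over the 11 numbered 6 to 9 and -2.74 over the 4 numbered 10 or more. The groups did not overlap for 26 of the 30 tested members (66.6% of all genes), 17 lower (35.4% of all genes) and 9 higher (31.3%).

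The makeup of the Hox signal stood apart between the labelled genotypes. HoxB genes made up 70.4% and 68.1% of the summed Hox FPKM in the eWAT libraries labelled Crtc1+/+ and 39.7% and 35.3% in those labelled Crtc1-/-. HoxC genes made up 4.04% and 4.16% in the former and 29.2% and 36.5% in the latter. HoxA genes made up 3.05% and 2.47% against 12.5% and 12.3%, and HoxD genes 22.5% and 25.2% against 18.7% and 15.9%. No range overlapped, but 2 libraries against 2 cannot give an exact two-sided permutation p below 0.333. In absolute terms the HoxB sum was 512 ± 25.003 FPKM (SD, n = 2) under Crtc1+/+ and 70.2 ± 29.6 under Crtc1-/-, the HoxD sum 177 ± 27.1 and 32.6 ± 14.7, the HoxC sum 30.3 ± 2.82 and 59.0 ± 11.3, and the HoxA sum 20.3 ± 1.51 and 22.9 ± 8.14. The HoxA sum did not differ beyond its spread.

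**Figure D3:**
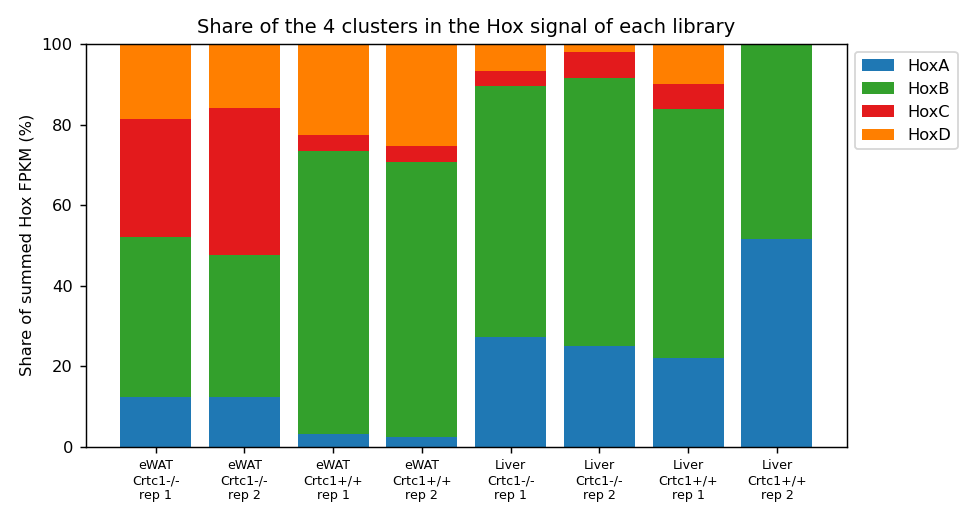
Share of the summed Hox FPKM held by each of the 4 clusters in each of the 8 libraries, as stacked bars to 100%. HoxB holds most of the signal in eWAT labelled Crtc1+/+ (70.4% and 68.1%), HoxC is far larger in eWAT labelled Crtc1-/- (29.2% and 36.5%), and the liver bars rest on sums of 1.36 to 4.07 FPKM.

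Values of other cell types moved with these groups. Among all genes tested in eWAT, 5.54% passed as lower and 6.65% as higher. All 25 epididymis markers were lower in eWAT labelled Crtc1-/- and 23 passed, and all 8 smooth muscle markers were lower and 2 passed. All 10 sperm and testis markers were lower as well, with a median of -3.60 on the log2 scale, and 3 passed. Of 12 adipocyte markers, all were higher and 9 passed, and all 8 endothelial markers rose. All 8 macrophage markers were higher, with a median of 2.02 on the log2 scale, and 3 passed. HoxB and HoxD values ran in the direction of the epididymis, sperm and testis, and smooth muscle markers, and HoxC values in that of the adipocyte, endothelial and macrophage markers, across the same 4 libraries. Fibroblast and preadipocyte markers were split (5 higher, 3 lower, median 0.41 on the log2 scale), as were mesothelium markers (4 higher, 3 lower, median 0.03). All 13 hepatocyte markers were higher (median 4.15), mostly through replicate 2 of eWAT labelled Crtc1-/-, and 1 passed. The part of any of these lists in the Hox values was not tested. Leaving the epididymis and hepatocyte markers out of the scaling gave 10 Hox calls (9 lower, 1 higher).

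Hox RNA of liver was near the detection limit in both genotypes, and no member passed there. Of the 38 members 5 were tested, and 0 passed an adjusted p of 0.05 in edgeR's quasi-likelihood test (0.0854% of all genes tested passed), 0 by DESeq2, and 1 at an unadjusted p of 0.05 (17.3% of all genes did). Hoxb4 had 14 and 8 counts in the libraries labelled Crtc1+/+ and 22 and 29 in those labelled Crtc1-/- (log2 fold change 1.31 ± 0.51, edgeR adjusted p = 0.256). Hoxb5 had 9 and 5 counts against 11 and 22 (log2 fold change 1.33 ± 0.61), and Hoxb2 9 and 5 counts against 10 and 17 (log2 fold change 1.04 ± 0.60). Hoxa5 had 4 and 5 counts against 10 and 11 (log2 fold change 1.29 ± 0.59), and Hoxb3 had 8 and 1 counts against 10 and 16 (log2 fold change 1.61 ± 0.77).

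The 5 tested genes were all higher without overlap in liver labelled Crtc1-/-, where 25.8% of all genes were. For none of the 5 did both libraries labelled Crtc1+/+ hold enough counts for the test. These genes entered it through the libraries labelled Crtc1-/-. Their shared direction was therefore largely set by the filter and is not read as a result. Hoxa4, too low to test, had 6 counts in each library labelled Crtc1+/+ and 7 and 8 in the others. The counting intervals of the summed counts were wide: the ratio for Hoxb4 was 2.47 with a 95% interval from 1.47 to 4.27. Epididymis markers ran the same way in these libraries and by more. They made up 0.000254% and 0.000261% of counts in the livers labelled Crtc1+/+, with 11 of the 25 at 0 in each, and 0.00961% and 0.00139% in those labelled Crtc1-/-, with 1 and 6 at 0. The 4 with enough counts to be tested were all higher without overlap, with a median of 4.59 on the log2 scale, and none passed the adjusted threshold. All but Gpx5 entered the test only through the libraries labelled Crtc1-/-, so nothing is read from their direction or median. The shares of counts above cover all 25 and do not depend on the filter. Smooth muscle and fibroblast markers were also higher, with medians of 1.79 over 6 tested genes (5 higher, none passed) and 1.03 over 7 (all higher, none passed) on the log2 scale, against 0.00 over all genes. Their part in the Hox values was not tested.

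**Figure D4:**
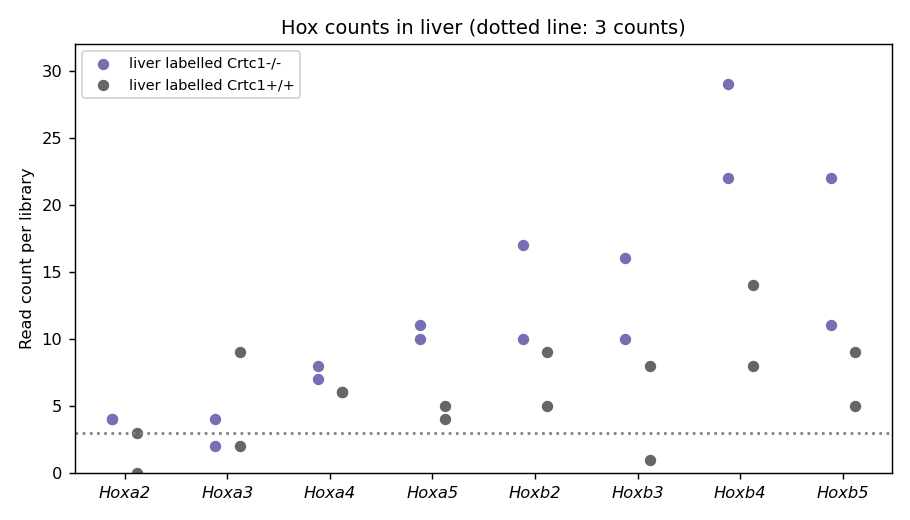
Read counts per liver library of the 8 HoxA and HoxB genes numbered 2 to 5, with 1 point per library, those labelled Crtc1-/- to the left and Crtc1+/+ to the right of each name. The dotted line marks 3 counts. No gene exceeds 29 counts, and for Hoxa5, Hoxb2, Hoxb3, Hoxb4 and Hoxb5 both points labelled Crtc1-/- lie above both others.

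Between tissues, Hox genes were higher in eWAT whichever genotype was taken. Among libraries labelled Crtc1+/+, 28 of the 30 tested members were higher in eWAT and 0 lower at an edgeR adjusted p of 0.05 (54.9% of all genes passed, 35% in the direction of eWAT). Among libraries labelled Crtc1-/-, 21 were higher and 0 lower (27.8% of all genes passed, 18.9% in that direction). The median difference, with genes at 0 in liver set to their bound, was 4.75 on the log2 scale under Crtc1+/+ and 3.33 under Crtc1-/-, where all genes had medians of 0.61 and 0.20. The second value counts 3 members at 0 in both tissues as no difference. Only 5 of the 30 had enough counts in liver to be tested there. The rest entered this fit through their eWAT counts, so their direction was largely set by the filter. The numbers of calls and the medians are therefore not read against those of all genes. The 5 passed as higher in eWAT in both genotypes. The summed Hox counts given above do not depend on the filter, and every eWAT library exceeded every liver library. These 2 comparisons contrast different libraries, but both came from one fit of all 8 libraries with a shared estimate of the spread. They are therefore not independent, and both also share libraries with the genotype comparisons.

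The size of the tissue difference varied along the clusters. Hoxb8 had a log2 difference of 11.92 ± 0.89 under Crtc1+/+ and 5.58 ± 0.66 under Crtc1-/- (edgeR adjusted p = 0.000494 and 0.00172). Since the 2 wild-type livers held 1 and 0 counts, the ratio of the summed counts had a 95% interval that began at 803. Hoxb7 was at 0 in both livers labelled Crtc1+/+, and was at least 197-fold higher in eWAT. Hoxd4, also at 0 there, was at least 129-fold higher in eWAT labelled Crtc1+/+. Hoxb4 had a smaller gap, with log2 differences of 4.43 ± 0.43 and 3.43 ± 0.40 (edgeR adjusted p = 0.00069 and 0.00157). Hoxa5 differed by about as much in each genotype, by 3.27 ± 0.48 under Crtc1+/+ and 3.08 ± 0.45 under Crtc1-/- on the log2 scale. Hoxc8 had no count in either liver labelled Crtc1-/- and was at least 119-fold higher in the eWAT of that genotype. Under Crtc1+/+ Hoxd10 was among the members that missed the threshold, and under Crtc1-/- Hoxa11, Hoxb1 and Hoxd1 had no count in either tissue.

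Whether the genotype difference itself differed between tissues was tested in one fit of the 8 libraries, which took liver and eWAT as independent although, by the study's methods, both were taken from the same mice. Of the 30 tested members, 3 passed an adjusted p of 0.05, all with a more negative genotype difference in eWAT (6.94% of all genes passed, 3.16% in that direction). Hoxb8 and Hoxd4 entered the fit only through their eWAT counts. Hoxd4 had liver counts of 0 and 0 under Crtc1+/+ and 1 and 1 under Crtc1-/-, all under the floor of 3, so its liver difference was not measurable at this depth. Hoxb8 had 1 and 0 liver counts against 8 and 1, and the library with 8 also held the most epididymis marker counts of the 4 livers, whose part in this value was not tested. Nothing is read from the calls of these 2 genes. Hoxb2, with liver counts above the floor in all 4 libraries, had an interaction of -2.91 ± 0.66 on the log2 scale (edgeR adjusted p = 0.0481), a call lost in 10 of 17 alternative analyses. With the replicate number within each genotype as a block none of the 3 passed (adjusted p = 0.0795 for Hoxb2). Calls fell to 0 when any single library labelled Crtc1+/+, of either tissue, or replicate 1 of liver labelled Crtc1-/- was left out, to 1 without replicate 2 of either tissue labelled Crtc1-/-, and rose to 4 without replicate 1 of eWAT labelled Crtc1-/-.

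The partners and regulators of Hox genes were described from lists. Of 11 TALE cofactors tested in eWAT, 9 were lower in the libraries labelled Crtc1-/- and 1 passed (12.2% of all genes did), with a median of -0.70 on the log2 scale. The one that fell was Tgif1, a repressor of TGF-beta and retinoid signalling, with 60.7 and 68.1 CPM against 22.9 and 15.0 CPM (log2 fold change -1.76 ± 0.34, edgeR adjusted p = 0.0391). No other cofactor passed. Pbx2, among the cofactors with the most counts, had 47.9 and 43.6 CPM against 77.995 and 63.7 CPM.

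Among 30 Polycomb and trithorax genes, 1 rose and 2 fell in eWAT (6.65% and 5.54% of all genes did), so the share that passed was near that of all genes, and the list had a median of -0.40 on the log2 scale. Ezh1, the histone H3 lysine 27 methyltransferase of resting cells, rose from 42.3 and 41.6 CPM to 101 and 111 CPM (log2 fold change 1.34 ± 0.26, edgeR adjusted p = 0.0387). Phf19, a Polycomb accessory protein, had 23.3 and 24.5 CPM against 3.13 and 1.60 CPM (log2 fold change -3.33 ± 0.50, edgeR adjusted p = 0.0260). Rbbp7, a histone-binding subunit of several chromatin complexes, had 251 and 394 CPM against 69.0 and 44.9 CPM (log2 fold change -2.50 ± 0.42, edgeR adjusted p = 0.0295). Rbbp4, its close relative, had 123 and 129.5 CPM against 169 and 119 CPM, and those groups overlapped.

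Of 15 tested genes of retinoic acid and patterning signals, 3 rose and none fell in eWAT (6.65% and 5.54% of all genes did), and all 3 encode nuclear retinoid receptors. Rxra had 82.2 and 73.1 CPM against 325 and 451 CPM (log2 fold change 2.32 ± 0.34, edgeR adjusted p = 0.0251). Rxrg had 1.45 and 1.504 CPM against 23.96 and 11.8 CPM (log2 fold change 3.595 ± 0.56, edgeR adjusted p = 0.0268), and Rarg 59.6 and 48.4 CPM against 195.5 and 158 CPM (log2 fold change 1.71 ± 0.30, edgeR adjusted p = 0.0320). These receptors also serve adipocytes, of whose 12 markers 9 rose in the same libraries. Aldh1a1, which makes retinoic acid and was among the most abundant of the list, had 813 and 1307 CPM against 168 and 335 CPM and did not pass (edgeR adjusted p = 0.0669).

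Of 20 tested genes next to the clusters, 1 passed in eWAT (12.2% of all genes did), and the median was -0.13 on the log2 scale. It was Skap1, an adaptor protein of T cells that lies beside HoxB, with 33.3 and 28.2 CPM against 3.63 and 0.833 CPM (log2 fold change -3.77 ± 0.78, edgeR adjusted p = 0.0442). The neighbours with the most counts, the mitochondrial ATP synthase genes Atp5g1 beside HoxB and Atp5g3 beside HoxD, did not pass, with 291 and 251 CPM against 131 and 390.5 CPM and with 138 and 113 CPM against 307 and 349 CPM. Of 13 tested regulators of regional identity, 1 passed (against the same 12.2%). It was Irx3, a homeobox gene of fat and other tissues, which rose from 0.819 and 1.56 CPM to 16.4 and 20.6 CPM (log2 fold change 3.95 ± 0.55, edgeR adjusted p = 0.0226). Pax8, a gene of the kidney and genital ducts, had 221 and 211 CPM under Crtc1+/+ against 23.0 and 0.0694 CPM. Its 2 libraries labelled Crtc1-/- lay far apart, as for Hoxb9, and it did not pass (edgeR adjusted p = 0.196). Tbx2, a T-box repressor, had 111 and 125 CPM against 46.4 and 15.5 CPM and did not pass (edgeR adjusted p = 0.0902). In liver none of the genes on these lists passed.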

How the data were processed

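RNA-seq was carried out by a sequencing company on 8 libraries, grouped by their labels. Per the study's methods liver and eWAT were taken from 2 mice of each genotype, so the tissues share animals, and which libraries share a mouse is not given in the sources used here. The authors deposited estimated counts per gene, not normalized, and FPKM, which allow for transcript length and library total, for the same 19348 genes. HISAT, Bowtie2 and GRCm38.p6 are named in the submitters' processing notes. The counting tool and annotation are not given in the sources used here. All 304 Hox values were whole numbers, whereas 2568 genes of the table had a value that was not.

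Counts were rounded, filtered by filterByExpr, scaled by TMM and tested by edgeR's quasi-likelihood test (edgeR 4.0.16, R 4.3.3), within a tissue for genotype and over 8 libraries for tissue and interaction, and p-values were adjusted by Benjamini-Hochberg across every tested gene. SE was taken as the log2 fold change over the square root of F. CPM used the TMM factors of the tissue. A gene at 0 in a group was given a bound against a floor of 3 counts per library. Intervals cover counting error only. Alternatives were DESeq2 1.42.0, limma 3.58.1 on quantile-normalized log2(FPKM + 1) and log2(FPKM + 0.1), other scalings and filters, a replicate block, all 8 libraries in 1 fit, only the 4 libraries of a tissue contrast, and each library left out. The scripts were tested on simulated data.

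The study's own test was limma, and the count test was preferred because counts were deposited. The value in every library was given for members past an adjusted p of 0.05 in a genotype comparison, the 5 highest by mean FPKM in each tissue and the detected ends of the clusters. From further lists the passing genes of lowest p (up to 5) and the 2 with the highest mean count were named. Other genes named were chosen after their values were seen, and the members and lists were chosen with earlier results of these data known. 1 member and 1 cofactor count in the totals but are not reported here by name or drawn. None of 19 listed noncoding genes of the clusters, nor Hoxc12, is analysed here. Coordinates came from GENCODE and promoters from RefSeq. Figures were drawn with matplotlib 3.10.9.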

Additional observations from a re-analysis of the deposited data

Results flagged for a closer look

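For 3 Hox genes the genotype difference passed a test of its difference between eWAT and liver, the interaction term of edgeR's quasi-likelihood test over 8 libraries (difference in eWAT minus difference in liver, libraries labelled Crtc1-/- over Crtc1+/+). The interaction was -2.91 for Hoxb2, -6.34 for Hoxb8 and -6.89 for Hoxd4 on the log2 scale, with edgeR adjusted p of 0.0481, 0.0306 and 0.0491. For Hoxb2 the difference was -1.75 ± 0.44 within eWAT and 1.04 ± 0.60 within liver. Hoxb8 and Hoxd4 entered the fit only through eWAT. All 4 liver libraries of Hoxd4 and 3 of 4 of Hoxb8 were under the floor of 3 counts, so no liver difference was measurable for Hoxd4 and nothing is read from either value. Over the 17 alternatives the adjusted p ran from 0.0120 to 0.166 for Hoxb2, from 0.00179 to 0.245 for Hoxb8 and from 0.00502 to 0.170 for Hoxd4, with the same direction in each. The call was lost in 10 of the 17 for Hoxb2, 6 for Hoxb8 and 11 for Hoxd4, and for all 3 with the replicate number as a block. The cause was not tested.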

How the results depend on the processing

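Counts of Hox calls under the alternatives are given without the share of all genes that passed in each, so they are not read against it. Hox calls in eWAT numbered 9 (1 higher, 8 lower) and between 9 and 13 with limma (13 and 11), upper-quartile scaling (9, all lower), library-size scaling (10, all lower), scaling without marker genes, no filter, or a mean count of at least 50. They numbered 17 by DESeq2, 14 with all 8 libraries in one fit and 0 to 12 with each library left out. Of the 30 tested members, those that passed kept their direction in all alternatives run. Hoxa4, not past the threshold, was -0.039 with library-size scaling and between -0.67 and 0.75 with each library left out, and Hoxc10 was 0.084 and 0.33 by limma with pseudocounts of 1 and 0.1 and between -1.54 and 0.59 with each library left out. With the replicate number as a block, 0 Hox genes passed in eWAT (and no gene of the table), 0 in liver, 28 and 20 between tissues under Crtc1+/+ and Crtc1-/-, and 0 in the interaction. Deviations of same-numbered libraries correlated at -0.15 in eWAT and 0.07 in liver between genotypes, and at 0.28 under Crtc1+/+ and 0.0036 under Crtc1-/- between tissues. By the study's methods both tissues came from the same mice, but no source says that a number marks a mouse, so the numbers were read as names only. In liver 0 passed in each of 13 alternatives, and a mean count of at least 50 left no member there. Tissue calls ran from 19 to 29 under Crtc1+/+ (1 of 24 lower by limma with a pseudocount of 0.1, in all other alternatives none) and from 17 to 24 under Crtc1-/-. Interaction calls, 3 in the report, numbered 5 by DESeq2, 15 and 12 by limma with pseudocounts of 1 and 0.1, 1 with upper-quartile scaling, 1 with library-size scaling, and 0 to 4 with each library left out. Ranked by CPM in place of FPKM, 3 of the 5 highest members in eWAT and 4 of 5 in liver stayed on the list. Where a group was left with 1 library, that library was assumed to vary like the others. The causes were not tested. Depth limits the liver values, where most members held 3 counts or fewer, and 2 libraries per group limit the rest.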
